A study of Mus musculus with 4 samples.

Results

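The Hox genes encode homeodomain transcription factors and lie in 4 clusters, Hoxa to Hoxd, on mouse chromosomes 6, 11, 15 and 2. They were followed here in ATDC5 cells, a clonal chondroprogenitor line derived from a mouse teratocarcinoma. Members were all genes whose symbol is Hox, a cluster letter and a number, and which have a probe set annotated to that symbol alone. There were 37 such genes out of 19938 genes measured, each read by 1 probe set. A probe set annotated to both Hoxb8 and Hoxb7 was left out.

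Each of 4 samples of total RNA was hybridised to 1 whole-transcript array. The 2 day 0 samples came from undifferentiated ATDC5 cells in DMEM/F12 with 5% fetal bovine serum, 2 mM glutamine and 12.5 μg/mL ascorbic acid. The 2 day 15 samples came from cells in which insulin, transferrin and selenite were added to that medium for 15 days. All 4 samples share the cell line, the serum and the ascorbic acid, and no sample was kept for 15 days without the supplement, so time in culture, the supplement and differentiation cannot be told apart. Whether the samples of a day were grown as separate cultures is not stated in the labels, so the p-values rest on a spread that may be purely technical. In bulk RNA, fewer cells of a type and less RNA per cell cannot be told apart.

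Of 12 chondrocyte markers 6 were called higher and none lower at a limma adjusted p below 0.05, against 1.3% and 0.411% of all genes. Acan rose from 7.50 and 7.22 to 10.22 and 11.56 (log2 intensity, limma adjusted p = 0.0233), and Col2a1 rose from 9.68 and 9.49 to 11.28 and 12.23 (0.0441). Sox9 was at 12.19 and 11.88 on day 0 and at 12.26 and 12.75 on day 15 (0.534). Acan lost its call when all probe sets were tested together (0.144), and Col2a1 lost it in 5 settings, among them without day 0 replicate 2 (0.103). The arrays numbered 1 stood apart in markers of another cell type. Of 12 macrophage and microglia markers 10 were higher in replicate 1 than in replicate 2 on both days, 8 of them by at least 1 log2. Of all 19938 genes 68 were higher in replicate 1 by at least 1 log2 on both days. The 12 macrophage and microglia markers had a summed level of 13.33 and 13.29 log2 on the replicate 1 arrays of days 0 and 15. On the replicate 2 arrays the sum of these markers was 11.16 and 11.55. C1qb was at 11.36 and 11.11 in replicate 1 and at 6.09 and 5.80 in replicate 2. Of 9 myelin markers 2, Mbp and Mobp, showed a gap of at least 1 log2, and of 10 neuron markers none did. No marker was at 0. No Hox gene was at least 1 log2 higher in the same replicate on both days. Of the 37 Hox genes 15 were higher in replicate 1 on both days and 10 in replicate 2, against 34.1% and 28.5% of all genes. The part of these markers in the Hox values was not tested, and Hox differences were also computed for each replicate number alone.

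Genes at the 3′ end of a Hox cluster have low paralog numbers, are switched on early and pattern the anterior body, while genes at the 5′ end have high numbers and pattern the posterior trunk and the distal limb. Genes of 1 paralog group descend from 1 ancestral gene and have closely related homeodomains. The combination of Hox genes that a mesenchymal cell expresses is known to be kept in culture and to mark the axial level it came from, and Hox proteins act in skeletal patterning with cofactors of the TALE homeodomain class such as Pbx and Meis.

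The 250 bases before the annotated start are shown for the 4 Hox genes that had an unadjusted limma p below 0.05 between the days and have a RefSeq promoter entry; all 4 were higher on both day 15 arrays. Sequences are from RefSeq, build GRCm38.p6, and read 5′ to 3′ on the strand of the gene. Hoxa10 has entries for 2 starts. Capitals mark matches on either strand to 4 motifs. The pair of a Pbx and a Hox site was searched as TGATNNAT. The letters TTTATG stand for the binding motif of Cdx factors, which activate trunk Hox genes. The TATA box that sets the start in many promoters was searched as TATAAA, and the CCAAT box by its own letters.
Hoxa7, chr6:52218574-52218823, minus strand: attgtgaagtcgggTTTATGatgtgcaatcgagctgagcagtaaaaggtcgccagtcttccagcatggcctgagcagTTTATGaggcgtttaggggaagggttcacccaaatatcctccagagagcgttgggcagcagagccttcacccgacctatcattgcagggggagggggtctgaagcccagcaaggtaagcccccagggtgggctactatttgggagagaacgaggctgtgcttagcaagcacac
Hoxa10, start nearer Hoxa9, chr6:52234940-52235189, minus strand: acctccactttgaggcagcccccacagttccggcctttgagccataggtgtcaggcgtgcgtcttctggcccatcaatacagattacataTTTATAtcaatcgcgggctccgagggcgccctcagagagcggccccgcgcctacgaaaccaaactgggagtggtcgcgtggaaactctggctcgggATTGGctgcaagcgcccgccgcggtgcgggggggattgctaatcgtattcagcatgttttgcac
Hoxa10, start nearer Hoxa11, chr6:52240855-52241104, minus strand: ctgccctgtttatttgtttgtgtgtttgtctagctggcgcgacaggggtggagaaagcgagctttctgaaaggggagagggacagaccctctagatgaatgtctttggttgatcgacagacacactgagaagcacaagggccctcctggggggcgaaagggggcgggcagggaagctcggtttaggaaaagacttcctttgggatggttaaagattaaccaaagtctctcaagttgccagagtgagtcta
Hoxd8, chr2:74704365-74704614, plus strand: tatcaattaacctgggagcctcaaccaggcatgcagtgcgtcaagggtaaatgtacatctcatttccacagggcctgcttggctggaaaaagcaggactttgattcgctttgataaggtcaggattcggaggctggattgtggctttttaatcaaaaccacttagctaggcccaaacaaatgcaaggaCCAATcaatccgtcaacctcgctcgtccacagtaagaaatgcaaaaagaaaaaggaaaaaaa
Hoxd9, chr2:74697513-74697762, plus strand: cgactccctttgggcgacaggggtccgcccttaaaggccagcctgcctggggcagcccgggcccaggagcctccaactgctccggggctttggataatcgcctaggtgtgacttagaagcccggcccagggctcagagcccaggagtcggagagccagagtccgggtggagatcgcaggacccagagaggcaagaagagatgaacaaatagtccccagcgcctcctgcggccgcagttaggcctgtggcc

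These windows differ in the motifs they hold. The Hoxa7 window held 2 matches to the Cdx motif, which 10.8% of all 32851 RefSeq promoter windows of this length hold. The Hoxa10 window nearer Hoxa9 held 1 TATA match and 1 CCAAT match, both on the opposite strand; the TATA letters are in 12.4% of all windows and CCAAT in 33.8%. The other Hoxa10 window and the Hoxd9 window held none of the 4 motifs, and the Hoxd8 window held 1 CCAAT match. None of the 5 held the Hox-Pbx pair, which 7.68% of all windows hold. Of the 24 Hox windows in the table, which belong to 22 genes, 4 held the Hox-Pbx pair, 5 the Cdx motif, 4 the TATA letters and 14 CCAAT. A match describes letters only, not a bound site.

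The clusters also hold microRNA genes, whose mature 5p strands are shown because paralogous Hox clusters carry members of 1 seed family. They are from RefSeq, build GRCm38.p6, with the seed (bases 2 to 8) in capitals.
miR-10a-5p, in Hoxb, chr11:96317186-96317208, plus strand: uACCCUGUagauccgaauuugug
miR-10b-5p, in Hoxd, chr2:74726074-74726096, plus strand: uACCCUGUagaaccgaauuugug
miR-196a-5p, in Hoxb, chr11:96265187-96265208, plus strand, and in Hoxc, chr15:102973365-102973386, plus strand: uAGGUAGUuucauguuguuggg
miR-196b-5p, in Hoxa, chr6:52230129-52230150, minus strand: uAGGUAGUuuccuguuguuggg

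The miR-10 pair and the miR-196 pair each share the seed and differ at 1 base outside it (A12U from miR-10b to miR-10a, C12A from miR-196b to miR-196a, counted from the 5′ end). The probe sets of these loci read primary or precursor RNA and not the mature strand. Mir10a was at 4.69 and 5.23 on day 0 and at 4.19 and 4.91 on day 15, and Mir10b at 4.84, 3.68, 4.90 and 3.85 in the same order, all below the lower decile of all genes (6.33). Mir196a-1, beside Hoxb9, was brighter, at 8.18 and 8.43 on day 0 and 7.95 and 7.94 on day 15. Both its day 15 arrays lay below both day 0 arrays, and the difference was −0.36 ± 0.17 log2 (SE), which missed the threshold (limma adjusted p = 0.524). Mir196a-2 at 6.40 to 6.80 and Mir196b at 6.38 to 6.90 were dim on all 4 arrays.

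Of the 10 Hox genes of paralog groups 5 to 8, in the middle of the clusters, 7 were brighter than the median gene of the array, and of the 9 genes of groups 11 to 13, at the 5′ end, none was. This is a description with no test, and the range of groups 11 to 13 was chosen after the values were seen. Levels are log2 of the intensity plus 1 after quantile normalization. Probe sets differ in response and length was not accounted for, so a level is placed against the distribution over all genes, and the order between Hox genes describes brightness and not RNA amount. The median of all genes was 8.72, with quartiles at 7.15 and 10.88. Of the 37 Hox genes 14 lay at or above that median, against 50% of all genes by construction, 3 lay at or above the upper quartile and 7 at or below the lower quartile, against 25% each. The Hox median was 8.08. Over groups 5 to 8 the median level was 9.52, with Hoxb5, Hoxc6 and Hoxc8 below the median of all genes. Over groups 1 to 4 it was 7.85, with 3 of 11 above, and over groups 9 to 13 it was 7.47, with 4 of 16 above.

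**Figure D1:**
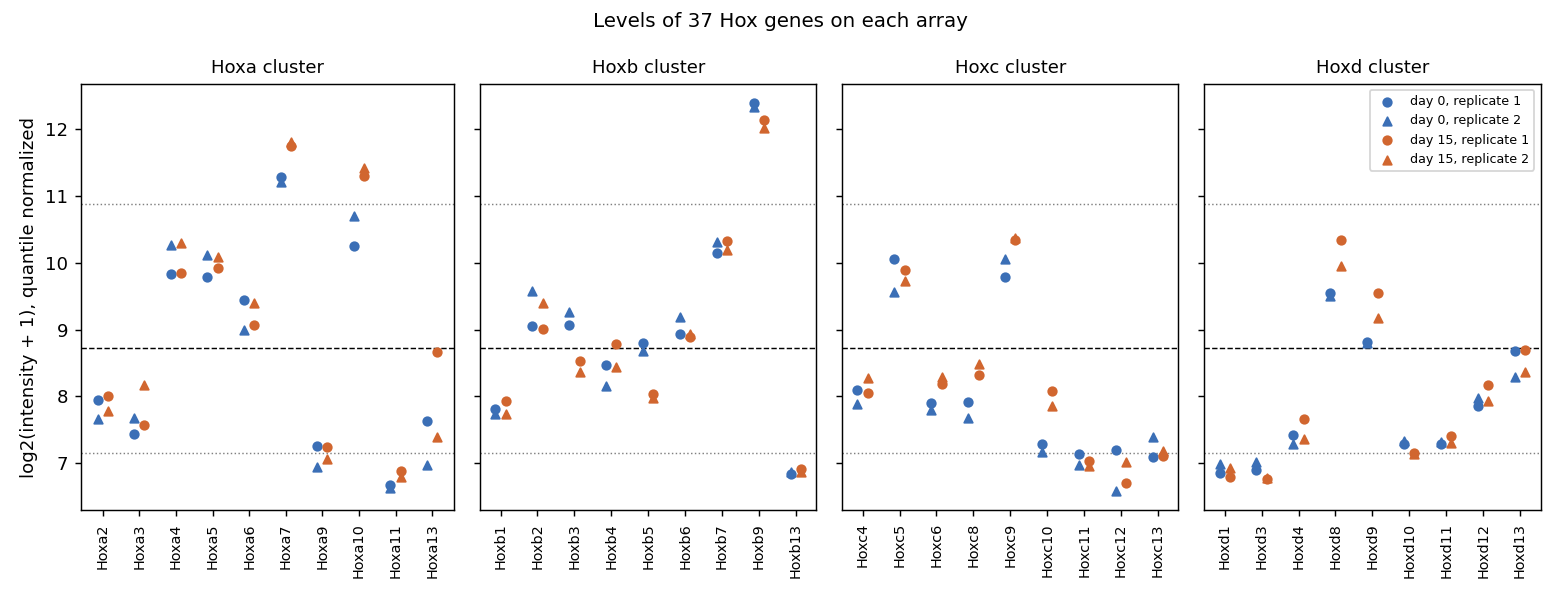
Level of each of the 37 Hox genes on each array (y axis, log2 of intensity + 1, quantile normalized), by cluster and in order of paralog number. Blue is day 0, orange day 15, circles replicate 1 and triangles replicate 2; the dashed line is the median of all genes (8.72) and the dotted lines are the quartiles (7.15 and 10.88). Hoxb9, Hoxa7 and Hoxa10 stand above the other Hox genes.

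Hoxb9, a gene of the thoracic group that patterns the ribs (probe set 10380622), was the brightest member. It was at 12.39 and 12.34 on day 0 and at 12.13 and 12.02 on day 15, in the 92.8th percentile of all genes. Hoxa7 (probe set 10544779), a gene of the thoracic trunk, followed at 11.29 and 11.21 on day 0 and 11.75 and 11.80 on day 15, in the 83.9th percentile. Hoxa10 (probe set 10544798), of the group that suppresses ribs in the lumbar region, was at 10.25 and 10.70 on day 0 and 11.30 and 11.41 on day 15, in the 75.5th percentile. By their mean level these 3 were the members above the upper quartile (10.88), and of them Hoxb9 and Hoxa10 lie outside groups 5 to 8. Hoxa10 passed that quartile only through day 15, as both its day 0 arrays lay below it. The count of members at or above the upper quartile was 2 without day 15 replicate 1, and also 2 without day 15 replicate 2. The 2 arrays of a day lay close together for Hoxb9 (SD 0.04 and 0.08 log2 on days 0 and 15) and Hoxa7 (0.06 and 0.04), and less so for Hoxa10 on day 0 (0.32).

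The next members in brightness, Hoxb7, Hoxc9, Hoxa4, Hoxa5, Hoxd8 and Hoxc5, lay close together between 9.81 and 10.24 on average, and neighbours in that order did not differ beyond the spread between arrays. Hoxb7 was at 10.15 and 10.32 on day 0 and at 10.33 and 10.18 on day 15. Hoxc9 was at 9.79 and 10.06 on day 0 and at 10.34 and 10.37 on day 15. Hoxa4, of a group that patterns neck vertebrae, was at 9.83 and 10.27 on day 0 and at 9.85 and 10.29 on day 15, so that its replicates differed by more than its days. Hoxa5, which acts at the border of neck and thorax and in lung development, was at 9.78 and 10.11 and then at 9.92 and 10.08. Hoxd8 was at 9.55 and 9.51 and then at 10.34 and 9.95. Hoxc5 was at 10.05 and 9.56 and then at 9.90 and 9.73. The arrays of the days were apart for Hoxc9 and Hoxd8 and overlapped for Hoxb7, Hoxa4, Hoxa5 and Hoxc5. Hoxb2, a hindbrain gene, followed, at 9.06 and 9.58 on day 0 and 9.004 and 9.40 on day 15.

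**Figure D2:**
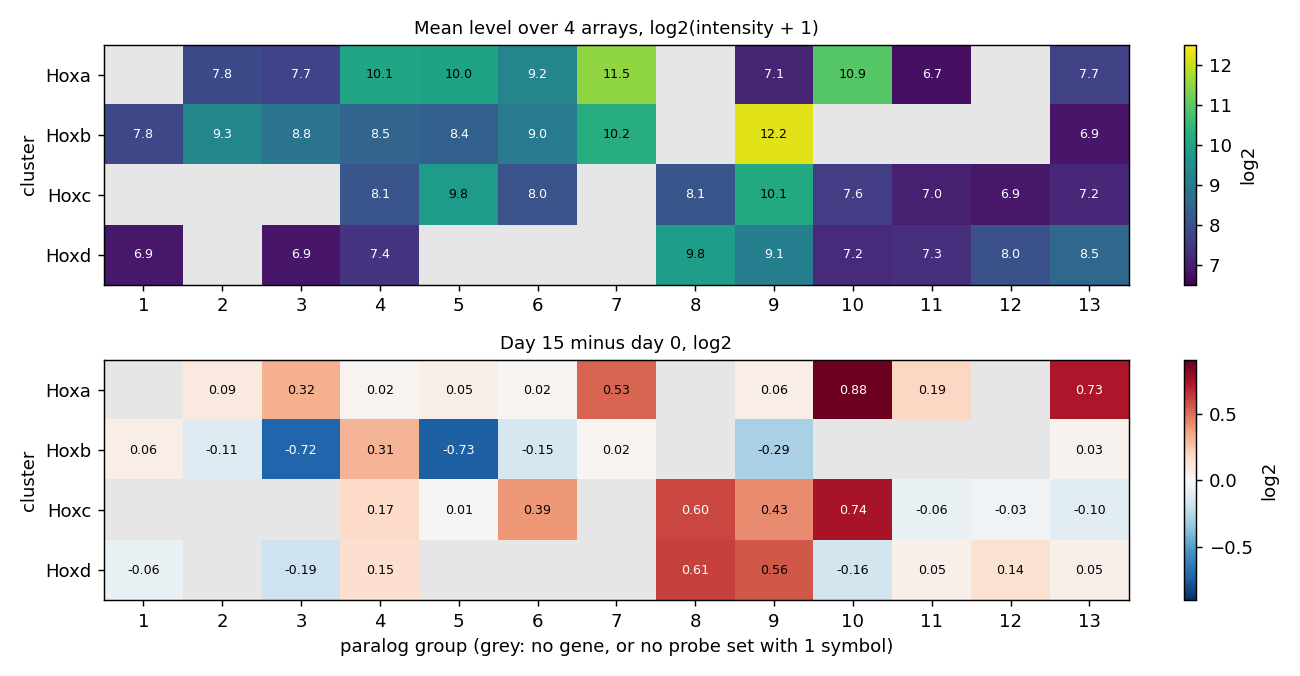
Mean level over 4 arrays (upper map, log2 of intensity + 1) and day 15 minus day 0 difference (lower map, log2) for each Hox gene, with clusters as rows and paralog groups 1 to 13 as columns; grey cells have no gene or no probe set with 1 symbol. Most of the high levels lie at groups 4 to 9 and at Hoxa10, and the 5 largest positive differences are those of Hoxa10, Hoxc10, Hoxa13, Hoxd8 and Hoxc8.

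Paralogs of 1 group were not equally bright. In group 9 the mean levels were 12.22 for Hoxb9, 10.14 for Hoxc9, 9.09 for Hoxd9 and 7.13 for Hoxa9, a gene known from blood progenitors, which lay in the 24.5th percentile beside its bright neighbours Hoxa7 and Hoxa10. In group 10 Hoxa10 was at 10.92, Hoxc10 at 7.60 and Hoxd10 at 7.24. In group 4 Hoxa4 was at 10.06, Hoxb4 at 8.47, Hoxc4 at 8.08 and Hoxd4 at 7.44. In group 5 Hoxa5 and Hoxc5 were at 9.97 and 9.81 and Hoxb5 at 8.37. Group 13, which patterns digits and the tail end, ran from 8.51 for Hoxd13 and 7.67 for Hoxa13 down to 7.20 for Hoxc13, known from hair, and 6.87 for Hoxb13, known from prostate. By cluster, 5 of 10 Hoxa, 5 of 9 Hoxb, 2 of 9 Hoxc and 2 of 9 Hoxd genes lay above the median of all genes. No detection call was used. The median level was 6.96 for endothelial, 7.38 for epithelial, 7.53 for neuron and 7.68 for skeletal muscle markers, though single markers were brighter. Hox genes with mean levels up to 7.68, among them Hoxc10 and Hoxa13, may lie at background, which was not tested. The same holds for brighter ones such as Hoxc6 at 8.04 and Hoxc8 at 8.11, since the epithelial marker Cldn4 was at 8.13.

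The dimmest members were Hoxa11, of the forearm and lower leg group, at 6.67 and 6.63 on day 0 and 6.88 and 6.80 on day 15, and Hoxd3 at 6.89 and 7.02 and then 6.76 and 6.78. Hoxd1, Hoxb13, Hoxc11, Hoxc12 and Hoxa9 were the other members at or below the lower quartile. Hoxd10, Hoxd11, Hoxc13 and Hoxd4 lay just above it, at 7.20 to 7.44. Hoxa2, which patterns the second branchial arch, Hoxa3, Hoxb1, which marks a hindbrain segment, and Hoxd12 lay between 7.71 and 7.98. Hoxc6, a thoracic gene, lay at 8.04. Hoxa6 and Hoxb6 lay just above the median of all genes, at 9.23 and 8.99, with Hoxd9 and Hoxb3.

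No Hox gene passed the test between day 15 and day 0. Limma on all 19938 genes called 1.3% of them higher and 0.411% lower at an adjusted p below 0.05, and 0 of 37 Hox genes in either direction. At an unadjusted p below 0.05 there were 6 Hox genes higher, against 7.38% of all genes, and 2 lower, against 4.78%. The 6 became 3 without day 0 replicate 1, against 6.29% of all genes, and 2 without day 0 replicate 2, against 5.31%. It was 5 without day 15 replicate 1, against 5.13%, and 5 without day 15 replicate 2, against 8.58%. The arrays of the days did not overlap for 9 Hox genes that were higher at day 15, against 22.3% of all genes, and for 6 that were lower, against 17.8%. These 9 are 24.3% of the Hox genes. On the deposited scaling, without quantile normalization, the arrays did not overlap for 14 Hox genes that were higher, 37.8% of them against 22.1% of all genes, and for 6 that were lower, against 16.6%. The count of higher genes was 9 with median centring and with quantile normalization over probe sets with 1 symbol. The lower count was 8 in each of these settings, and their shares of all genes were not computed. Of the scalings tried, the deposited one thus moved the count of higher genes. The smallest difference called for any gene was 1.04 log2, and no Hox difference reached 1 log2. In simulated data of the same size the test recovered 0% of changes of 0.5 log2, 8% of 1 log2 and 88% of 2 log2. The simulated spread was drawn from that fitted over all genes, and 50 genes were changed at each size. The median SD was 0.119 for Hox genes and 0.149 for all genes, a gap that the simulation did not take into account. The simulation also changed fewer genes than were called in these data, which makes its adjusted threshold stricter. Recovery in the data may therefore be higher. In that simulation, changes of the size seen here were hardly detectable with 2 arrays a day.

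**Figure D3:**
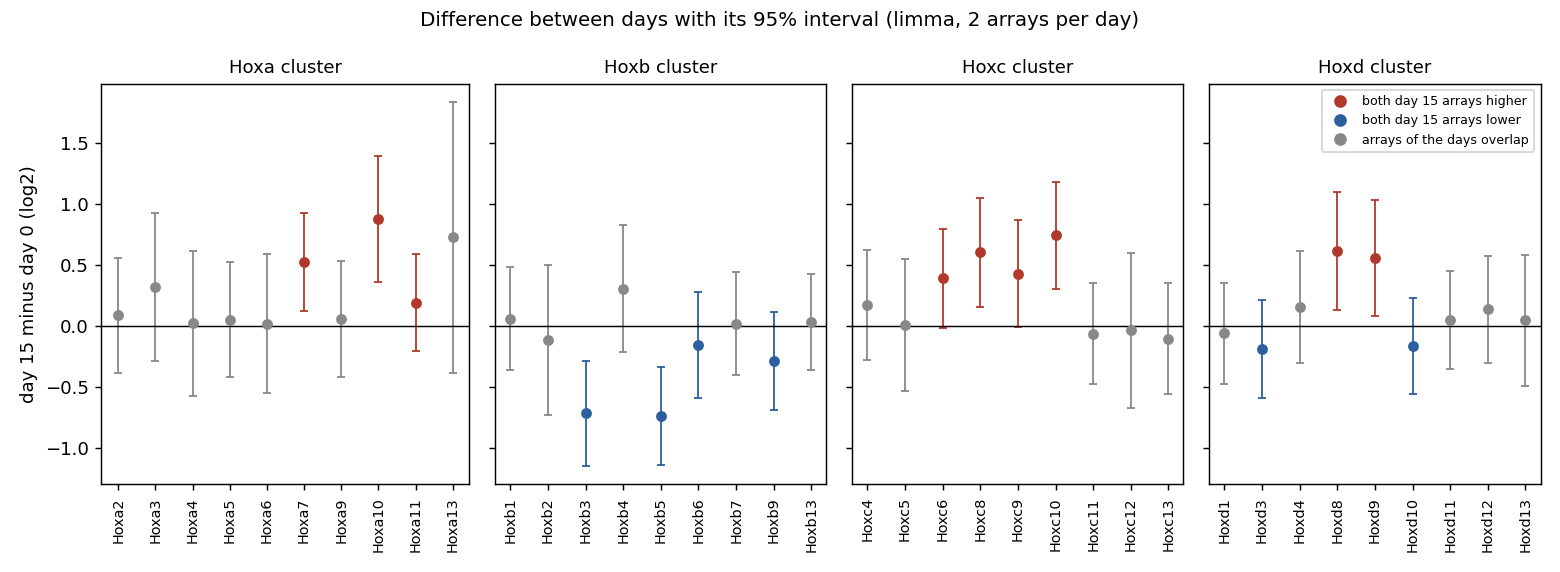
Day 15 minus day 0 difference of each Hox gene (y axis, log2) with limma's 95% interval, by cluster and in order of paralog number. Red marks genes whose day 15 arrays both lay above both day 0 arrays (9), blue those whose day 15 arrays both lay below (6) and grey those whose arrays overlapped; the intervals of 8 genes leave out 0, and no gene passed after adjustment over all genes.

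The members with the largest positive differences lay at group 7 and beyond in the Hoxa, Hoxc and Hoxd clusters. Hoxa10 was 1.84-fold higher at day 15, a difference of 0.88 log2 (95% interval 0.36 to 1.40, limma adjusted p = 0.154). It was 1.05 for the replicate 1 arrays and 0.71 for the replicate 2 arrays alone. Hoxc10, its lumbar paralog in Hoxc (probe set 10427280), was at 7.29 and 7.16 on day 0 and at 8.09 and 7.86 on day 15. Both day 15 arrays of Hoxc10 lay above both day 0 arrays, and the difference was 0.74 (0.31 to 1.18, limma adjusted p = 0.154). Its day 0 levels may lie at background, which was not tested.

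Hoxa13, a gene of the hand and foot, had nearly as large a mean difference, 0.73 (−0.38 to 1.84), but its arrays overlapped. It was at 7.64 and 6.97 on day 0 and at 8.67 and 7.40 on day 15. Its day 0 levels may also lie at background. The day 15 replicate 1 array was high and the day 15 replicate 2 array was below the higher day 0 array (limma adjusted p = 0.662). Without day 15 replicate 1 the difference was 0.09.

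Group 8, whose mutants show changed thoracic vertebrae, had higher values at day 15 in both clusters measured. Hoxd8 was 1.53-fold higher, with both day 15 arrays above both day 0 arrays, at 0.61 log2 (0.13 to 1.10, limma adjusted p = 0.28). Hoxc8 was at 7.92 and 7.68 on day 0 and at 8.32 and 8.49 on day 15, a difference of 0.60 (0.16 to 1.05, limma adjusted p = 0.245). The day 0 levels of Hoxc8 may lie at background, which was not tested. For Hoxd8 the replicate 1 arrays gave 0.79 and the replicate 2 arrays 0.44, and for Hoxc8 they gave 0.40 and 0.81. The arrays of the days did not overlap for either gene, which by itself fixes the same sign in both replicate numbers.

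Next to Hoxd8, Hoxd9 was at 8.82 and 8.80 on day 0 and at 9.55 and 9.18 on day 15. Its arrays did not overlap and its difference was 0.56 (0.08 to 1.03, limma adjusted p = 0.324). Hoxa7 differed by 0.53 (0.13 to 0.92, limma adjusted p = 0.259), with 0.46 from the replicate 1 arrays and 0.60 from the replicate 2 arrays. Hoxc9, at 0.43 (limma adjusted p = 0.425), Hoxc6, at 0.39 (0.437), and Hoxa11, at 0.19 (0.794), were the remaining genes whose day 15 arrays both lay higher. Of the 8 genes of groups 8 to 10 in Hoxa, Hoxc and Hoxd, 6 had non-overlapping higher arrays, against 22.3% of all genes. Only 1, Hoxd10, had non-overlapping lower ones, against 17.8%, and the median difference was 0.58. With Hoxb9, which was lower, the 9 genes of groups 8 to 10 held 6 higher and 2 lower, with a median of 0.56. Both groupings were chosen after the values were seen. Hoxa9, between Hoxa7 and Hoxa10, differed by 0.06 (−0.42 to 0.53).

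The largest negative differences were both in Hoxb. Hoxb5, which acts in the shoulder girdle (probe set 10380641), was at 8.79 and 8.69 on day 0 and at 8.04 and 7.98 on day 15. Both day 15 arrays lay below both day 0 arrays, and the gene was 1.66-fold lower, a difference of −0.73 (−1.14 to −0.33, limma adjusted p = 0.13), the smallest adjusted p among the Hox genes. Hoxb3 (probe set 10380654), of a group that patterns pharyngeal structures and the hindbrain, was at 9.07 and 9.27 on day 0 and at 8.53 and 8.37 on day 15. Its arrays did not overlap either, and its difference was −0.72 (−1.15 to −0.28, limma adjusted p = 0.165). The replicate 1 arrays gave −0.76 for Hoxb5 and −0.54 for Hoxb3, and the replicate 2 arrays −0.71 and −0.89.

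Hoxb4, a neighbour of both genes that is known from blood stem cells, did not share that direction. It was at 8.47 and 8.15 on day 0 and at 8.79 and 8.45 on day 15, a difference of 0.31 (−0.21 to 0.83, limma adjusted p = 0.712), with overlapping arrays. Hoxb9, the brightest member, was 1.22-fold lower, at −0.29 (−0.69 to 0.11, limma adjusted p = 0.612), and its 2 day 15 arrays lay below both day 0 arrays. Hoxd10, of the lumbar group, was at 7.30 and 7.34 on day 0 and at 7.16 and 7.15 on day 15, a difference of −0.16 (−0.56 to 0.23, limma adjusted p = 0.837). Hoxb6 at −0.15 and Hoxd3 at −0.19 were the other genes with non-overlapping lower arrays. The 8 genes with an unadjusted p below 0.05 were Hoxa7, Hoxa10, Hoxc8, Hoxc10, Hoxd8, Hoxd9, Hoxb3 and Hoxb5. All 8 had non-overlapping arrays, which by itself fixes the same sign in the replicate 1 arrays and in the replicate 2 arrays. Their adjusted p under the other settings ran from 0.065 for Hoxa10, with the replicate number as a block, to 0.738 for Hoxd9.

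By cluster, the median difference was 0.14 for Hoxa, −0.12 for Hoxb, 0.18 for Hoxc and 0.05 for Hoxd, against 0.02 for all genes. The mean difference was positive for 26 of the 37 Hox genes, against 53.2% of all genes. It was positive for all 10 Hoxa genes, of which 3 had non-overlapping higher arrays, against 22.3% of all genes. For 5 of 9 Hoxb genes the mean difference was negative. The replicate 1 arrays alone gave a positive difference for 8 of the 10 Hoxa genes, with −0.38 for Hoxa6 and −0.01 for Hoxa9, and the replicate 2 arrays for 9, with −0.03 for Hoxa5. The count of positive Hoxa genes was 9 with median centring, 7 with quantile normalization over probe sets with 1 symbol, and 7 or 8 when any 1 array was left out, and the genes that turned (Hoxa2, Hoxa4, Hoxa5, Hoxa6 and Hoxa9) had differences of at most 0.09. With quantile normalization over probe sets with 1 symbol, the median differences were 0.07 for Hoxa, −0.16 for Hoxb, 0.11 for Hoxc and −0.01 for Hoxd. In that setting the median was −0.002 over all Hox genes and −0.04 over all genes. The sign of Hoxd thus turned in that setting, and also without replicate 1 of both days, at −0.02. The sign of Hoxb turned without day 0 replicate 2, at 0.02. The Hoxc median was 0.39 without the replicate 1 arrays and 0.003 without the replicate 2 arrays. Members of a cluster share a locus and are not replicates, and no test between clusters was made. The genes nearest 0 included bright ones. Hoxb7 differed by 0.02 (−0.40 to 0.44), Hoxc5 by 0.01 (−0.54 to 0.55), Hoxa4 by 0.02 (−0.58 to 0.62), Hoxa5 by 0.05 (−0.42 to 0.53) and Hoxa6 by 0.02 (−0.55 to 0.59). These intervals do not show that the levels of the days were equal.

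**Figure D4:**
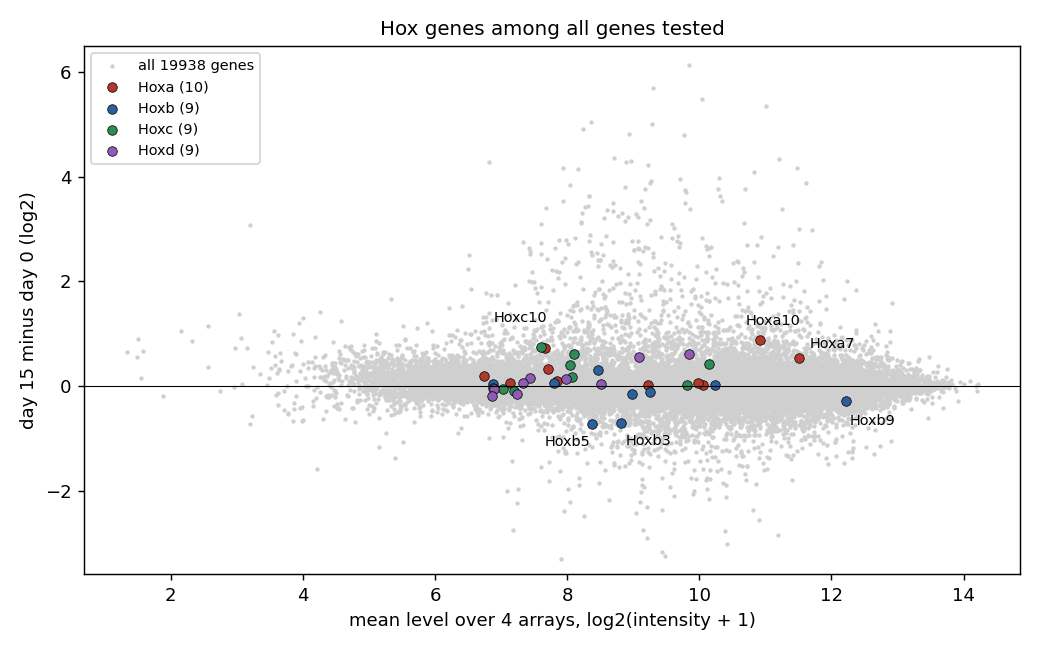
Day 15 minus day 0 difference (y axis, log2) against the mean level over 4 arrays (x axis, log2 of intensity + 1) for all 19938 genes in grey and the 37 Hox genes coloured by cluster. The Hox differences run from −0.73 to 0.88, within the cloud of all genes, whose differences run from −3.32 to 6.14.

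Genes that work with Hox proteins or set their expression were compared by the same fit. None of the 10 TALE cofactors measured was called. Pknox2, a TALE factor, was at 8.30 and 8.43 on day 0 and at 9.28 and 10.06 on day 15, a difference of 1.31 ± 0.28 log2 (SE, limma adjusted p = 0.122). Meis3 differed by 0.67 ± 0.21 (limma adjusted p = 0.264), and its arrays at 8.67 and 9.10 on day 0 lay below those at 9.63 and 9.47 on day 15. The median difference of the list was 0.20. The cofactor Pbx3 was among the bright genes, in the 89.7th percentile, and Meis1 lay in the 75.2nd.

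None of the 27 Polycomb and trithorax regulators measured was called, and their median difference was −0.01. The largest differences were those of Kmt2a, a histone methyltransferase that maintains Hox expression, and its relative Kmt2b. Kmt2a was at 11.47 and 11.21 on day 0 and at 9.66 and 10.92 on day 15 (−1.05 ± 0.41, limma adjusted p = 0.387). Kmt2b was at 9.91 and 9.90 on day 0 and at 8.60 and 9.53 on day 15 (−0.84 ± 0.32, limma adjusted p = 0.37). For both, the day 15 replicate 1 array was the low one and the days did not overlap.

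None of the 16 upstream patterning factors measured was called. Cyp26b1, which degrades retinoic acid, an inducer of Hox genes, was at 9.08 and 10.18 on day 0 and at 8.17 and 8.63 on day 15 (−1.23 ± 0.38, limma adjusted p = 0.269). Egr2, a hindbrain regulator of Hox genes, was at 8.81 and 8.01 on day 0 and at 9.63 and 8.94 on day 15 (0.87 ± 0.35, limma adjusted p = 0.397). Cdx1, Cdx2 and Cdx4, which activate trunk Hox genes, lay at percentiles 43.5, 36.3 and 8.01 of all genes.

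None of the 27 limb and girdle patterning factors measured was called, and their median difference was −0.005. Gli3, a repressor of the hedgehog pathway in the limb, was at 11.73 and 11.79 on day 0 and at 10.50 and 11.46 on day 15 (−0.78 ± 0.32, limma adjusted p = 0.419). Irx5, a homeobox gene of the proximal limb, was at 10.64 and 10.60 on day 0 and at 11.09 and 11.56 on day 15 (0.70 ± 0.21, limma adjusted p = 0.246). The arrays of the days did not overlap for either gene, which had the largest differences of the list. The forelimb and hindlimb genes Tbx5 and Tbx4 were dim, in the 16.9th and 12.6th percentiles, while the mesenchymal factor Prrx1 lay in the 99.5th. Of the 19 genes measured inside or beside the Hox clusters none was called. Skap2, the neighbour of Hoxa, was at 10.18 and 10.23 on day 0 and at 11.02 and 10.67 on day 15 (0.64 ± 0.19, limma adjusted p = 0.244). Calcoco1, near Hoxc, was at 11.94 and 11.35 on day 0 and at 12.22 and 12.25 on day 15 (0.59 ± 0.24, limma adjusted p = 0.405). Both day 15 arrays of both genes lay above both day 0 arrays. Evx1 and Hottip at the Hoxa end lay in the 23.0th and 24.8th percentiles, and Evx2 at the Hoxd end in the 53.3rd.

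Of 15 measured genes described as targets of Hox proteins 2 were called higher and none lower, against 1.3% and 0.411% of all genes. Itga8, an integrin chain of kidney and mesenchyme, rose from 7.95 and 8.27 to 11.16 and 11.10, by 3.01 ± 0.19 log2 (SE, limma adjusted p = 0.00303), and kept its call in all settings tried. Wnt5a, a ligand of limb outgrowth, rose from 9.92 and 9.13 to 11.61 and 11.42 (limma adjusted p = 0.0379). Wnt5a lost its call without day 15 replicate 1 (0.144), without day 15 replicate 2 (0.0975), with median centring (0.0505) and when all probe sets were tested together (0.176). The median difference of the list was 0.06. All 6 lists were chosen with earlier results of these data known.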

How the data were processed

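The deposited table holds 1 processed intensity per probe set and array on a linear scale, judged from its values. How it was background-corrected, summarized and scaled is not stated in the sources at hand, and the submitters' processing notes name the build mm9. Of 35512 probe sets 21789 have 1 gene symbol, 1621 several and 12102 none in the platform annotation, and 21698 gene identifiers were matched to the gene table of GRCm38.p6. The brightest probe set of a gene was used, over 4 arrays. Intensities were turned to log2 after adding 1. Array medians ran from 7.87 to 8.06 log2, so all probe sets were quantile normalized, which was kept when an array was left out. By its construction the added 1 shrinks log2 differences of the lowest intensities. Days were compared by lmFit and eBayes of limma 3.58.1 (R 4.3.3), with the group as only term, with Benjamini-Hochberg adjustment over 19938 genes at 0.05. The test was run on simulated data, where 3.03% of the calls were unchanged genes. The number of arrays limits the precision. Figures used matplotlib 3.10.9.

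Values by array are given for the 10 brightest Hox genes, called ones, the 5 largest differences each way and the 2 dimmest, and for called members or the 2 largest differences of each list. Other genes and groupings were named after their values were seen. The members, lists and tests were chosen with earlier results of these data known. Alternatives were other scalings, a pseudocount of 16, a trend with robust hyperparameters, filters on level, the replicate number as a block, other uses of probe sets and leaving out arrays.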

Additional observations from a re-analysis of the deposited data

How the results depend on the processing

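In the simulation with 2 arrays a day, a difference under about 1 log2 was hardly detectable. Dim values may lie at background, which was not tested. No Hox gene was called under any of the 15 settings with a test. The count of higher genes with non-overlapping arrays was 14 on the deposited scaling, 37.8% of the Hox genes against 22.1% of all genes. A filter kept genes whose higher day mean reached the all-gene median, which left 15 Hox genes, Hoxb5 only through day 0. A filter on the mean over 4 arrays, chosen after seeing the data, left 14, without Hoxb5. Both gave 5 higher genes with non-overlapping arrays, where fewer genes were tested. The shares among all genes kept by the filters were not computed. Both gave median differences of 0.59 for Hoxd, −0.12 for groups 1 to 4 and 0.49 for groups 9 to 13. The Hoxb median was −0.22 with Hoxb5 and −0.15 without it, and without it 1 lower gene had an unadjusted p below 0.05 and 3 lower genes had non-overlapping arrays. Members left by a filter support nothing about all Hox genes. When arrays were left out, unadjusted p values below 0.05 were seen for 2 to 5 higher genes, and non-overlapping arrays for 12 to 20 higher and 7 to 11 lower genes, where fewer arrays make overlap rarer. The median difference then ran from 0.017 to 0.207 for all Hox genes, −0.262 to 0.015 for Hoxb, 0.003 to 0.39 for Hoxc, −0.018 to 0.214 for Hoxd, 0.092 to 0.293 for groups 5 to 8 and 0.012 to 0.211 for groups 9 to 13. Among the Hox genes given by array, differences near 0 changed sign there, from −0.20 to 0.24 for Hoxa4, −0.11 to 0.22 for Hoxa5, −0.38 to 0.15 for Hoxb2, −0.13 to 0.18 for Hoxb7 and −0.24 to 0.26 for Hoxc5. With quantile normalization over probe sets with 1 symbol, chosen after seeing the data, Hoxa4 (−0.002) and Hoxc5 (−0.023) changed sign. Of the other Hoxa genes, Hoxa6 and Hoxa9 were not positive in that setting either. Hoxa2, Hoxa6 and Hoxa9 also changed sign when arrays were left out. The cause was not tested. The replicate number as a block gave 628 called genes against 342, and testing all probe sets together 74, and leaving out 1 array 178 to 284; the block called 0 Hox genes, with the smallest adjusted p for Hoxa10 (0.065); deviations of same-numbered arrays correlated at 0.40 over all genes, and 2 pairs do not show that the numbers pair the samples. Leaving out replicate 1 or replicate 2 of both days was also chosen after seeing the data.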
